A study of Sus scrofa with 6 samples.

Results

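Mitochondrial carriers of the SLC25 family were followed in pig liver that remained after extended partial hepatectomy, the surgical removal of most of the liver. The carriers were taken as the transcript clusters with a single gene symbol beginning with SLC25A, or with the symbol UCP2 or UCP3, among the clusters of category main or rescue in the annotation of the Porcine Gene 1.0 ST array. A transcript cluster is the unit in which this array measures a gene or a part of one. The rule met 17 of 25385 tested clusters, and keeping for each symbol the cluster with the highest mean left 15 genes. Control livers came from 3 adult male German landrace pigs that received vehicle (Ringer solution) after the resection, and MSC-treated livers from 3 such pigs that received porcine mesenchymal stromal cells of the bone marrow by central venous infusion. By the methods these cells had been differentiated in culture towards hepatocytes before use, tissue was collected at the end of a day of intensive care, and all 6 animals had been resected, so no unresected liver enters the comparison. Each array stands for a different animal of its group by the methods, although the labels name no animals. The arrays are called control 1 to 3 and MSC 1 to 3.

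SLC25 carriers sit for the most part in the inner mitochondrial membrane, which is closed to most metabolites. They exchange nucleotides, phosphate, organic acids, amino acids and cofactors between the cytosol and the matrix. In hepatocytes they thereby join the parts of pathways that run in both compartments, among them urea synthesis, gluconeogenesis, fatty acid synthesis from citrate and ATP export.

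The comparison asked whether transcripts of these carriers differed between MSC-treated and control livers. The threshold of the study asks for a log2 difference of 0.5 or more in either direction together with a limma p below 0.05 before adjustment. It was passed by 0 of the 15 carriers and by 2.73% of all tested clusters, 1.24% of them higher and 1.49% lower in MSC. By the p alone 0 of the 15 carriers were found, beside 6.55% of all clusters. By the methods' t-test at more than 2-fold it was 0 as well, where only 32 of all 25385 tested clusters passed. The MSC mean was higher for 7 carriers and lower for 8, and the median difference over the 15 was -0.001 on the log2 scale, beside -0.015 over all tested clusters. The control and MSC values overlapped in all 15 carriers, while the groups were apart in 11.6% of all tested clusters. The lowest limma p adjusted over all tested clusters was 0.763 among the carriers. The standard errors of the 15 differences lay between 0.12 and 0.33 log2 units, and the 95% intervals reached down to -1.26 and up to 1.10. Differences of more than 0.5 were thus inside the interval for several carriers, and missing the threshold does not show that their levels were alike.

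**Figure D1:**
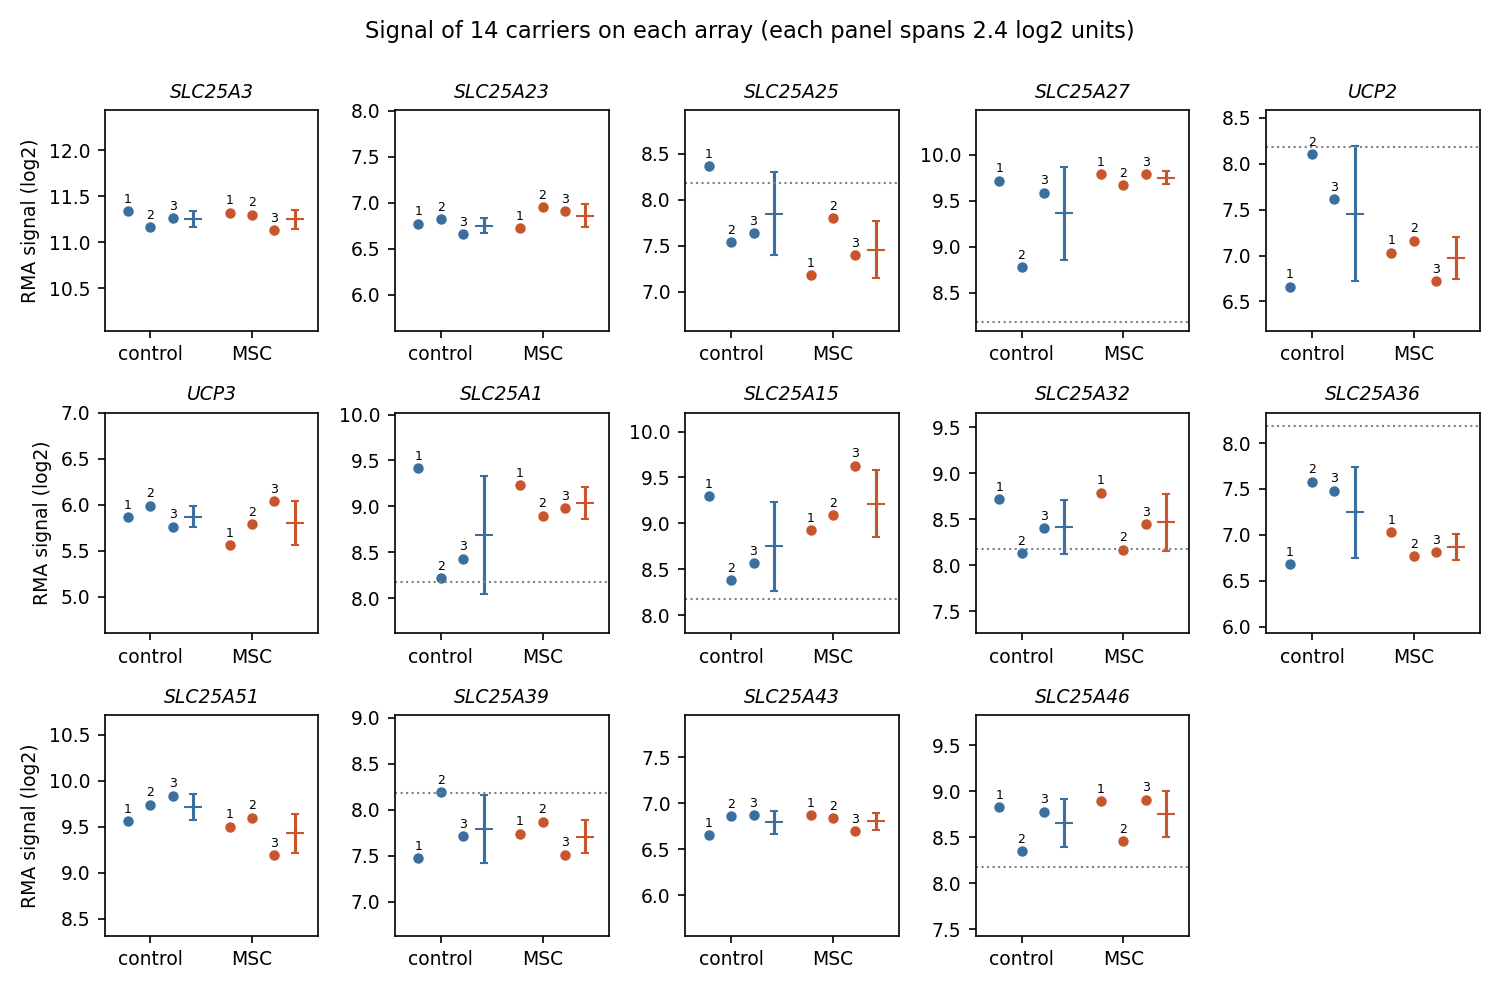
RMA signal (log2) of 14 of the carriers on the 3 control arrays (blue) and the 3 MSC arrays (orange), with the array number above each point. The bar beside each group is the mean with its SD and the dotted line, where a panel reaches it, the background level of 8.18; control and MSC values overlap in every panel, and control 1 lies away from control 2 and 3 in several.

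The signals are RMA values on the log2 scale, and a level of 8.18, the upper end of 23 antigenomic background probe sets, was used as a strict background. Both group means of SLC25A1, SLC25A3, SLC25A15, SLC25A27, SLC25A32, SLC25A46 and SLC25A51 lay above it, and with the comparison restricted to clusters above this level 0 of these 7 passed, beside 3.34% of such clusters. Both means of the other 8 carriers lay below it, so that the size of their differences is uncertain. The liver identity of the tissue was plain from the hepatocyte marker albumin, whose gene ALB averaged 13.50 ± 0.04 in control and 13.57 ± 0.06 in MSC (mean ± SD of the log2 signal, n = 3 arrays in each group). The number of arrays limits the precision of every value.

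The phosphate carrier SLC25A3, which brings in the phosphate that ATP synthase uses, gave even values on all 6 arrays. Its log2 signal was 11.34, 11.16 and 11.26 in control 1, 2 and 3 and 11.32, 11.30 and 11.13 in MSC 1, 2 and 3. The difference was -0.0015 with a 95% interval from -0.28 to 0.27, and leaving out single arrays moved it between -0.05 and 0.06. The carriers of ATP-Mg against phosphate, which adjust the adenine nucleotide content of the matrix under control of calcium, were represented by SLC25A23 and SLC25A25. SLC25A25 had log2 signals of 8.37, 7.54 and 7.64 in the controls and 7.18, 7.80 and 7.40 in MSC. Control 1 was the highest of the 6 arrays and the other controls lay within the MSC values. The difference of -0.39 (95% interval -0.98 to 0.19) shrank to -0.13 without control 1 and was -0.57 without MSC 2, and it passed the threshold in neither case. SLC25A23 differed by 0.11 (95% interval -0.17 to 0.39).

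Of the uncoupling proteins and their relatives UCP2 showed the widest spread. UCP2 is known for limiting reactive oxygen production and is found in liver macrophages as well as in stressed hepatocytes. Its annotated transcript lies at chr9:9147993-9155011 on the minus strand of Sscrofa10.2. The log2 signal of UCP2 was 6.66, 8.10 and 7.61 in control 1, 2 and 3 and 7.03, 7.16 and 6.72 in MSC 1, 2 and 3. Control 2 and 3 were above all MSC arrays and control 1 was below all of them. The difference was -0.48 with all arrays (95% interval -1.26 to 0.29), -0.16 without control 2 and -0.88 without control 1.

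UCP3, best known from skeletal muscle, lies next to UCP2 in the annotation (chr9:9166711-9179299, minus strand, Sscrofa10.2). It averaged 5.87 ± 0.12 in control and 5.80 ± 0.24 in MSC (log2 signal, n = 3 arrays per group), with a difference of -0.07. The skeletal muscle markers ACTA1, MYH7 and MYLPF also lay below the background level in both groups. SLC25A27, also named UCP4 and best known from brain, gave 9.72, 8.78 and 9.59 in control and 9.79, 9.67 and 9.79 in MSC. Only control 2 was clearly lower than the remaining 5 arrays. The difference of 0.39 (95% interval -0.16 to 0.94) fell accordingly to 0.10 without control 2.

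The citrate carrier SLC25A1, which exports the citrate from which fatty acids and sterols are made, was represented by a transcript at chr14:54541564-54544455 (minus strand, Sscrofa10.2). Its log2 signal was 9.42, 8.22 and 8.43 in control 1, 2 and 3 and 9.23, 8.90 and 8.98 in MSC 1, 2 and 3. Control 1 was the highest array of all and control 2 and 3 the lowest. The difference was 0.34 (95% interval -0.34 to 1.02), 0.71 without control 1 and 0.11 without control 2.

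SLC25A15, the ornithine carrier of the urea cycle, takes ornithine into the matrix in exchange for citrulline (transcript at chr11:15797583-15843547, plus strand, Sscrofa10.2). Its log2 signal was 9.30, 8.38 and 8.57 in the controls and 8.93, 9.09 and 9.63 in MSC. Control 1 stood among the MSC values and the other controls stood below them. The mean was 1.38-fold higher in MSC, a log2 difference of 0.47 (95% interval -0.16 to 1.10) that was 0.26 without MSC 3 and 0.74 without control 1.

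Among the cofactor and nucleotide carriers SLC25A51, the mitochondrial NAD carrier, had the smallest p of the 15 carriers (adjusted p = 0.763 by limma). Its log2 signal was 9.56, 9.74 and 9.84 in control and 9.50, 9.60 and 9.19 in MSC. MSC 3 was the lowest array, and MSC 2 lay just above control 1, which was the point of overlap between the groups. The difference was -0.28 (95% interval -0.63 to 0.06), from -0.37 without MSC 2 to -0.16 without MSC 3. SLC25A36, a pyrimidine nucleotide carrier, gave 6.68, 7.58 and 7.48 in control and 7.03, 6.77 and 6.81 in MSC. As for UCP2, control 2 and 3 were above the MSC arrays and control 1 below them. Its difference was -0.37 (95% interval -0.92 to 0.17) and, without control 1, -0.66. The folate and flavin carrier SLC25A32 differed by 0.06, and it turned direction when single arrays were left out, between -0.10 and 0.21.

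The glutathione carrier SLC25A39 was the only one of the 15 carriers with more than 1 cluster, and its 3 clusters did not give the same picture. The brightest, on chromosome 14, had log2 signals of 7.47, 8.19 and 7.71 in control and 7.74, 7.87 and 7.51 in MSC, a difference of -0.08 (95% interval -0.55 to 0.38). A second cluster on chromosome 2, marked as prone to cross-hybridization, differed by -0.36. The dimmest, with 8 probes, on chromosome 2 as well, had 6.03, 6.50 and 6.37 in control and 5.96, 5.81 and 5.62 in MSC. In this dimmest cluster all MSC values lay below all control values, as in 5.96% of all clusters. At a level below background it fell by 0.50 on the log2 scale (95% interval -0.88 to -0.12, adjusted p = 0.736 by limma). It thus passed the threshold, as did 1.49% of all clusters in this direction. This cluster was singled out after its values were seen. Both clusters on chromosome 2 are annotated with the same transcript but lie on opposite strands, so they cannot both read its own strand. The mean of the 3 clusters, which includes both, differed by -0.31. The current RefSeq gene table (Sscrofa11.1) placed SLC25A39 on a chromosome other than those of its 3 clusters, whereas the annotated chromosome and that of the table were the same for each of the other 14 carriers, so which gene the clusters of SLC25A39 measure is uncertain.

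The last pair of carriers has no settled substrate. SLC25A46, an outer membrane protein involved in mitochondrial shape, had log2 signals of 8.83, 8.35 and 8.78 in control and 8.89, 8.46 and 8.91 in MSC. Array 2 of either group was the lowest, and the difference of 0.10 (95% interval -0.33 to 0.52) was -0.05 without control 2. SLC25A43 averaged 6.80 ± 0.13 in control and 6.80 ± 0.09 in MSC (n = 3 arrays per group).

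**Figure D2:**
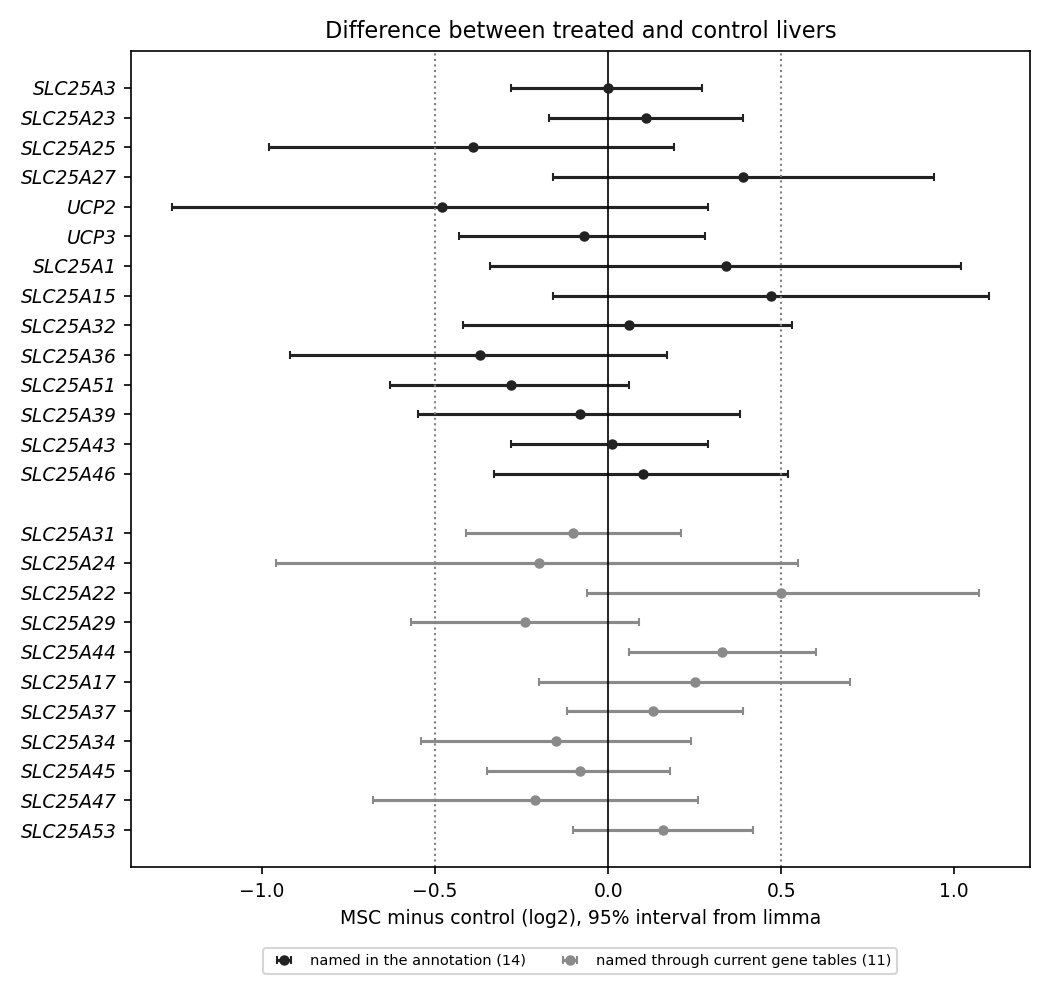
Difference between MSC and control (log2, x axis) with its 95% interval from limma for 14 carriers named in the annotation (black) and 11 more named through current gene tables (grey). Dotted lines mark differences of 0.5 either way; the interval of every carrier shown but SLC25A44 includes 0.

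Control 1 decided how many carriers passed. Without this array 5 of the 15 carriers were past the threshold of the study, and 8.73% of all tested clusters were. SLC25A1 (0.71, 95% interval 0.35 to 1.07), SLC25A15 (0.74, 0.23 to 1.25) and SLC25A27 (0.57, 0.03 to 1.11) were then higher in MSC, as were 3.95% of all clusters. UCP2 (-0.88, -1.35 to -0.42) and SLC25A36 (-0.66, -0.98 to -0.33) were then lower, as were 4.77% of all clusters. Their limma p adjusted over all clusters in that fit lay between 0.117 for SLC25A36 and 0.289 for SLC25A27. UCP2 and SLC25A36 are described array by array because of these values, that is, after the values were seen. With array weights, which gave control 1 the lowest weight (0.447), 4 of the 15 passed, beside 6.17% of all tested clusters. These were SLC25A1 (0.54) and SLC25A15 (0.64), with 2.91% of all clusters higher, and UCP2 (-0.70) and SLC25A36 (-0.51), with 3.25% of all clusters lower. Leaving out any of the other 5 arrays brought 0 carriers past the threshold.

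**Figure D3:**
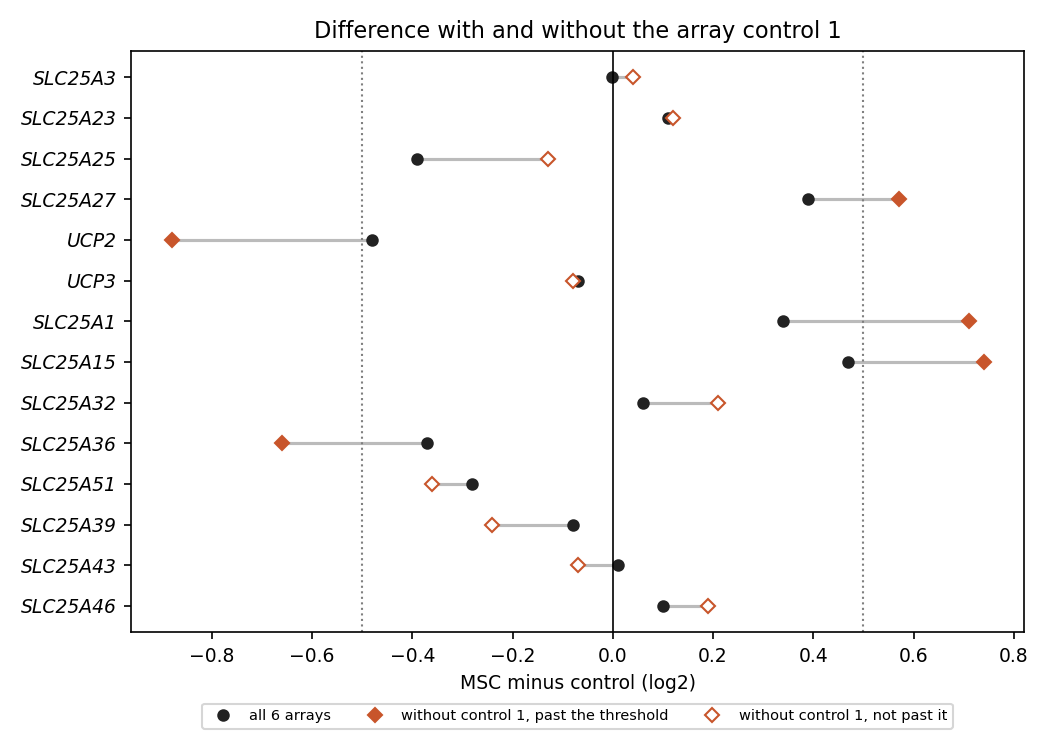
Difference between MSC and control (log2, x axis) of 14 carriers with all 6 arrays (black circles) and without control 1 (orange diamonds, filled where past the threshold of the study), with dotted lines at 0.5 either way. UCP2 moves from -0.48 to -0.88, SLC25A1 from 0.34 to 0.71 and SLC25A25 from -0.39 to -0.13.

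In 14 of the 15 carriers (93.3%) control 1 differed from the mean of control 2 and 3 in the same direction as the MSC mean did, and in 70.9% of all tested clusters. Both differences are taken from the same 2 arrays, which raises this share for any set of clusters. The exception was SLC25A25, where control 1 lay 0.78 above the other controls and the MSC mean below them. Control 1 was 1.19 log2 units below the mean of the other controls for UCP2, with a difference of -1.19, and 1.10 above it for SLC25A1.

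Cell type markers moved with the same arrays. In whole tissue fewer cells of a type and less RNA per cell cannot be told apart. The mean log2 signal of 5 matched hepatocyte markers, of 8 listed, was 13.01, 12.63 and 12.68 in control 1, 2 and 3 and 12.99, 12.83 and 12.84 in MSC 1, 2 and 3. Beside 2.73% of all clusters, 0 of these 5 markers passed the threshold. Their summed signal ran from 15.12 to 15.42 in control and from 15.27 to 15.41 in MSC (log2 of the sum). Like SLC25A1, these markers were lowest in control 2 and 3.

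Stellate, endothelial and bile duct markers were highest in control 2 and 3, as UCP2 and SLC25A36 were. The 6 stellate cell and fibroblast markers averaged 10.01, 10.97 and 10.97 in the controls and 10.17, 10.62 and 10.14 in MSC. All 6 had a lower MSC mean and 0 passed, beside 1.24% of all clusters higher and 1.49% lower. The same shares stand beside the counts of fallen markers in the other lists. The summed signal of the 6 ran from 13.24 to 14.11 in control and from 13.36 to 13.79 in MSC. The endothelial markers (4 of 6 matched) averaged 8.54, 9.50 and 9.23 in control and 8.72, 8.98 and 8.43 in MSC, with VWF fallen and summed signals of 10.65 to 11.69 and 10.69 to 11.20. The bile duct markers (4 of 5 matched) averaged 7.61, 8.31 and 8.28 in control and 7.47, 7.73 and 7.13 in MSC, with CFTR and EPCAM fallen and summed signals of 9.62 to 10.33 and 9.15 to 9.73. Of the blood cell lists, the macrophage and the T and NK cell markers followed this order by their list means. In both list means control 1 was the lowest array, as for UCP2 and SLC25A36, but single markers differed. Among the macrophage markers C1QB followed the order, whereas C1QA was lower in control 2 and 3 than on every MSC array. MARCO was higher in control 1 (6.90) than in MSC 1, 2 and 3 (6.79, 6.74 and 6.75). The MSC mean was higher for 2 and lower for 1 of the macrophage markers, and higher for 3 and lower for 3 of the T and NK cell markers. The neutrophil and erythroid markers did not follow it clearly. Control 3 lay level with control 1 in the neutrophil list mean and below control 1 in the erythroid one. The neutrophil markers (4 of 6 matched) had a lower MSC mean in 4 of 4, with S100A8 fallen and summed signals of 8.77 to 9.39 and 7.64 to 8.87. The erythroid markers (5 of 6 matched) were lower in 4 of 5, with EPB42 fallen and summed signals of 9.51 to 10.88 and 8.48 to 9.68. The macrophage markers (3 of 6 matched) averaged 8.66, 9.21 and 9.19 in control and 9.09, 9.02 and 9.04 in MSC, with 0 past the threshold and summed signals of 10.68 to 11.49 and 11.28 to 11.37. The T and NK cell markers (6 of 6 matched) were at 6.49, 7.56 and 7.23 in control and 7.14, 7.03 and 7.19 in MSC, with 0 past the threshold and summed signals of 9.64 to 10.83 and 10.12 to 10.30. Without control 1, where 8.73% of all clusters passed, 4 of the 6 stellate cell and fibroblast, 2 of the 4 endothelial and 4 of the 4 bile duct markers were past the threshold. So were 2 of the 6 T and NK cell, 1 of the 4 neutrophil and 1 of the 5 erythroid markers, and 0 of the 5 hepatocyte and 0 of the 3 macrophage markers. No marker was listed at 0. The part of these cell types in the values of the carriers was not tested.

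**Figure D4:**
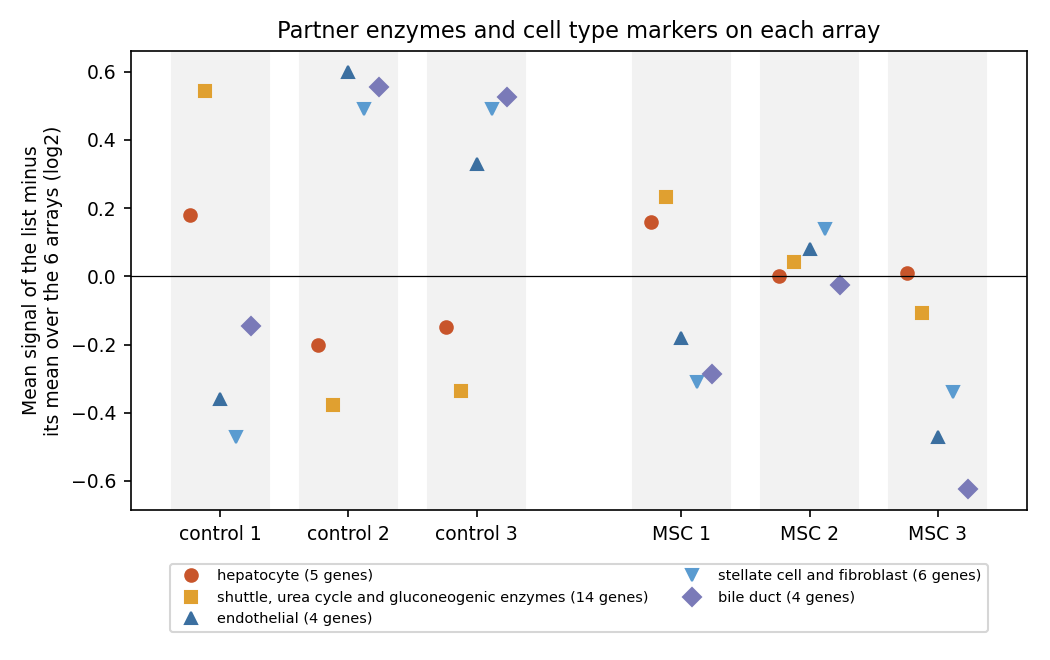
Mean signal of partner enzymes and of cell type marker lists on each array, as the difference from the mean of the list over the 6 arrays (log2, y axis). Hepatocyte markers and partner enzymes are lowest in control 2 and 3, where endothelial, stellate and bile duct markers are highest, and control 1 lies away from both of them.

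A further 11 carriers were found when provisional or older symbols of the annotation were replaced through current gene tables. Of these 11 carriers 0 passed the threshold, beside 2.73% of all tested clusters, and 5 had a higher and 6 a lower MSC mean. The groups were apart in 3 of the 11, beside 11.6% of all clusters. Each time MSC was above control, as in 5.64% of all clusters. SLC25A44, a carrier of branched-chain amino acids in brown fat of mice, had log2 signals of 7.11, 7.07 and 7.01 in control and 7.48, 7.27 and 7.43 in MSC. All its MSC values exceeded all control values, by 0.33 on average (95% interval 0.06 to 0.60, adjusted p = 0.736 by limma). This was the only one of the 11 with an unadjusted limma p below 0.05, beside 6.55% of all clusters. Its size is under the 0.5 that the threshold asks, and both means lay below the background level. The range with single arrays left out was narrow, from 0.29 to 0.39. SLC25A37, mitoferrin, which imports iron for haem synthesis, gave 7.92, 7.92 and 7.90 in control and 8.02, 8.13 and 7.99 in MSC, a difference of 0.13 with its groups apart at a level below background. SLC25A53 was the third carrier with its groups apart, at 5.06, 5.12 and 5.07 in control and 5.13, 5.27 and 5.31 in MSC, a difference of 0.16 (95% interval -0.10 to 0.42) below background.

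In the glutamate carrier SLC25A22, described by array after its values were seen, control 2 and 3 were the lowest arrays, as in SLC25A1. Its log2 signal was 9.02, 7.98 and 8.48 in control and 9.12, 8.87 and 9.02 in MSC. The difference was 0.50 (95% interval -0.06 to 1.07) and did not pass, except without control 1 (0.77), under array weighting (0.62) and when replicate numbers were fitted as a block (0.50). SLC25A47, a carrier known for its restriction to liver, was at 8.67 in control 1 and between 7.91 and 8.11 on the other 5 arrays, and the difference of -0.21 was 0.03 without that array. Its cluster is marked as prone to cross-hybridization, unlike those of the other 10. This cluster has 9 probes on the minus strand, and the other cluster of SLC25A47 has 25 probes on the plus strand. The annotation names the same transcript for both, so they cannot both read its own strand, and which of them does was not tested. The remaining 6, SLC25A17, SLC25A24, SLC25A29, SLC25A31, SLC25A34 and SLC25A45, had differences between -0.24 for SLC25A29 and 0.25 for the peroxisomal carrier SLC25A17. Of these 6 only SLC25A17 had both means above the background level. The value of SLC25A29 is that of a cluster with 10 probes. Its other cluster, with 28 probes on the opposite strand and marked as prone to cross-hybridization, differed by -0.02.

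Genes that work with the carriers were examined as lists. Of the enzymes of the metabolite shuttles, the urea cycle and gluconeogenesis, 14 of 18 were matched. The MSC mean was higher for 10 and lower for 4, with a median difference of 0.14. Past the threshold 1 rose and 0 fell, beside 1.24% of all clusters higher and 1.49% lower. The enzyme that rose was GOT2, the mitochondrial aspartate aminotransferase that works beside the aspartate carriers in the malate-aspartate shuttle. The log2 signal of GOT2 was 11.24, 10.70 and 10.97 in control and 11.55, 11.27 and 11.72 in MSC. Every MSC array was above every control array, as in 5.64% of all clusters. GOT2 rose by 0.54 (95% interval 0.12 to 0.95, adjusted p = 0.736 by limma). It missed the threshold when control 2 (0.40), MSC 1 (0.52) or MSC 3 (0.44) was left out, and by the methods' t-test. The cytosolic partner GOT1 differed by 0.47 (95% interval -0.04 to 0.97), with 9.23, 8.34 and 8.65 in control and 9.25, 9.15 and 9.22 in MSC, and the mitochondrial PCK2 of gluconeogenesis by 0.46. PCK1, also of gluconeogenesis, had the largest difference of the list, -0.95 (95% interval -2.65 to 0.75). Its log2 signal was 10.74, 9.09 and 8.01 in control and 8.12, 9.52 and 7.35 in MSC. On the arrays this list averaged 9.97, 9.05 and 9.09 in control and 9.66, 9.47 and 9.32 in MSC, with control 2 and 3 lowest as in SLC25A1 and SLC25A15. Without control 1, 5 of the 14 were past the threshold, beside 8.73% of all clusters.

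Other proteins of transport across the mitochondrial membranes were matched for 14 of 24 symbols. None rose or fell, beside 1.24% of all clusters higher and 1.49% lower. The MSC mean was higher for 12 and lower for 2, with a median difference of 0.17. Without control 1, 2 of the 14 were past the threshold, beside 8.73% of all clusters. VDAC1, the pore of the outer membrane, had 10.55, 10.06 and 10.43 in control and 10.66, 10.58 and 10.57 in MSC. Its difference was 0.26 with the MSC values above the control values, as in 5.64% of all clusters. CPT1A, which commits fatty acids to the acylcarnitine route into the matrix, differed by -0.49 (95% interval -1.14 to 0.16) and passed only without control 3 (-0.73). SFXN5 differed by 0.33, and by 0.50, past the threshold, without MSC 3. Of the machinery that imports carrier proteins 3 of 11 symbols were matched and 0 passed, beside 2.73% of all clusters. AGK differed by 0.18, TIMM29 by 0.09 and the receptor TOMM20 by 0.08. Of the regulators of mitochondrial content 6 of 9 were matched and 0 passed, beside the same 2.73%. PPARA, the fatty acid sensing nuclear receptor, differed by 0.50 (95% interval -0.13 to 1.13). Without control 1 PPARA differed by 0.82 and passed, as did 8.73% of all clusters. PPARGC1B differed by -0.22 and the mitochondrial transcription factor TFAM by 0.21.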

How the data were processed

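Total RNA of 6 liver samples was measured on Porcine Gene 1.0 ST arrays of Affymetrix, 3 control and 3 MSC, grouped by the sample titles. The deposited values are log2 signals per transcript cluster, which the authors computed by RMA, which corrects background, equalizes the distributions of the arrays and summarizes probes, with version 1.4 of Affymetrix Expression Console by the submitters' processing notes. They were used without further normalization. A deposited workbook gave symbols, categories and the cross-hybridization class, and 6 signal columns in it, which fit no sample label, were left out. Of 27558 probe sets 25385 (19124 main, 6261 rescue) were tested and 2173 sets of other categories left out.

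MSC minus control was fitted over all tested clusters with limma 3.58.1 (R 4.3.3, lmFit and eBayes, 4 residual and 3.8 prior degrees of freedom). The threshold is that of the study, and p-values were adjusted by Benjamini-Hochberg over every tested cluster. The background level is the 95th percentile of 23 antigenomic probe sets. Rose and fell are used only of clusters past the threshold. The calculation was tested on simulated data. Current names came from Ensembl and RefSeq tables. For cluster positions no build was found in the sources, and positions printed are those of Ensembl transcripts named in the annotation.

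Values are given array by array for carriers past the threshold or with groups apart and for the carrier with the smallest p in each role group of the 15. SLC25A22, SLC25A36, SLC25A47 and UCP2 were added after their values were seen. Of each partner list up to 3 genes with the smallest p are named, and PCK1 was added after its values were seen. For 1 of the 15 carriers single values are not reported here, and the counts include it. The members, lists and this rule were chosen with earlier results of these data known. Alternatives covered normalization, filters, category, moderation, array weights, the replicate block, the methods' t-test, cluster choice, symbols and each array left out. With 1 array per animal by the methods, the p-values rest on differences between animals and arrays together.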

Additional observations from a re-analysis of the deposited data

How the results depend on the processing

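The count of 692 clusters past the threshold (314 higher, 378 lower) was 188 among clusters above the background level, 1565 with array weights, 32 by the methods' t-test and 0 after Benjamini-Hochberg adjustment (1662 at an unadjusted p under 0.05), and with 1 array left out it ran from 445 without control 2 to 2215 without control 1, with 1240 without MSC 2. With arrays centred on their medians it split into 384 higher and 305 lower. The count of 0 carriers became 4 with array weights and 0 to 5 with 1 array left out, and it was 0 under each other alternative, with 26 carriers by current names included. The median difference of the carriers was 0.098 over the 7 above background and -0.061 to 0.042 with 1 array left out. Of the 15 carriers 8 kept their direction under every alternative run. SLC25A3 turned to 0.03 with median centring and 4e-05 with array weights, and SLC25A43 to -0.05 with array weights. With 1 array left out SLC25A3 ran from -0.05 to 0.06, SLC25A43 from -0.07 to 0.06, SLC25A32 from -0.10 to 0.21, SLC25A39 from -0.24 to 0.12, SLC25A46 from -0.05 to 0.24, UCP3 from -0.20 to 0.04, SLC25A24 from -0.55 to 0.04, SLC25A34 from -0.28 to 0.01 and SLC25A47 from -0.34 to 0.03. With the replicate number of the titles as a block 834 clusters and 0 carriers passed, the carriers' median difference stayed at -0.001, and SLC25A22 (0.50) passed. Same-numbered arrays of the 2 groups correlated at -0.016, 0.252 and -0.085, and differently numbered ones between -0.183 and 0.203. With 3 arrays in each group these values cannot tell whether the numbers pair animals. The cause of these changes was not tested. Signal over background limits the 8 carriers below the background level.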

Other observations

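One cluster of the X chromosome carried the symbol SLC25A6 together with a provisional symbol that the current table names SLC25A5, both ADP/ATP carriers, and it fell outside the rule of a single symbol. Its log2 signal was 10.77, 10.26 and 10.33 in control 1, 2 and 3 and 10.80, 10.62 and 10.72 in MSC 1, 2 and 3. The difference was 0.26 (95% interval -0.11 to 0.63) and 0.42 without control 1, neither past the threshold, and control 2 and 3 were again the lowest arrays. The cluster cannot tell the ADP/ATP carriers apart. The other cluster of SLC25A47, marked as prone to cross-hybridization like the one described above, gave 8.75, 7.37 and 7.38 in control and 7.57, 7.55 and 6.94 in MSC, with control 1 again the highest.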
